A study of Mus musculus with 4 samples.

Results

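Mast cells and basophils are granulocytes that bind IgE through the high-affinity receptor FceRI and release histamine, proteases and lipid mediators from granules. Both arise from progenitors that respond to SCF through its receptor Kit or to IL-3, and GATA factors and Mitf are known to drive their genes. The 10 genes described here stand for the contents of the granule (the carboxypeptidase Cpa3, the chymases Cma1 and Mcpt4, the tryptases Tpsb2 and Prss34, the basophil protease Mcpt8), for histamine synthesis (Hdc), for the alpha and beta chains of FceRI (Fcer1a and Ms4a2) and for transcription (Mitf). They were chosen by name, and each probe that the array design names for any of them was taken, which gave 12 probes of 39429 on the array. Tpsb2 and Mitf had 2 probes each, and the other genes had 1.

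RNA came from mouse Ebf1-/- Lin- fetal liver cells, so both groups lack functional Ebf1, the transcription factor that B cell development normally requires. The cells were infected with a GFP retrovirus that was empty (EMPTY) or carried miR-195 (miR-195), and were grown on OP9 stroma cells with SCF, IL-7 and Flt3-ligand, each at 10 ng/mL. Each group had 2 arrays, and the labels do not say whether these were separate cultures or animals, so p-values measure the spread between these arrays only. The labels place the cells around the pro-B cell stage. Il7r, Flt3, Rag1, Rag2, Vpreb1 and Dntt were detected on all 4 arrays, and of the 2 Pax5 probes 1 was detected on all 4 and 1 on 0. The probe of the disrupted gene Ebf1 was itself detected on all 4 arrays, with log2 levels of 2.01 and 1.89 with EMPTY, and 1.85 and 2.03 with miR-195, and so does not check the deletion. All 4 arrays lay on 1 slide, with both EMPTY arrays placed ahead of both miR-195 arrays, so slide position and virus cannot be told apart.

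The mature sequence of the transduced microRNA is shown because the microRNA is the only intended difference between the groups. The insert of the virus was amplified from cell line DNA, and the mature sequence that the methods print equals that of mouse mmu-miR-195a-5p. In the mouse genome this strand lies at chr11:70235062-70235082 on the plus strand (GRCm38.p6, RefSeq), and the capitals mark its seed, bases 2 to 8.
mmu-miR-195a-5p: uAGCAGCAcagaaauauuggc

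The first question was which of the genes could be seen at all in these cells. A probe counts as detected on an array where the scanner software called its spot well above background. Of the 12 probes, 5 were detected on all 4 arrays, 2 on 1 array and 5 on none, against 57.3% of all probes detected on all 4 arrays and 35.1% on none. The 5 detected probes belong to 4 genes, Cpa3, Hdc, Tpsb2 and Mitf. The probes of Fcer1a, Ms4a2, Mcpt8 and Cma1 were detected on 0 arrays. Both IgE-binding and signalling chains that are particular to FceRI were therefore not well above background in either group, and neither was the basophil protease. The signal of the 5 undetected probes lay between 2.27 and 18.8 scanner units after background subtraction, where the lowest detected spot of an array was 11.3 to 13.8 units. Values this low have no order, and they show only that these probes were not well above background. Among the 5 is a probe of Tpsb2, whose other probe was detected on all 4 arrays. An undetected probe therefore does not show that its transcript was under what the array could measure.

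Mcpt4, the chymase of connective tissue mast cells, was detected on EMPTY replicate 1 alone. Its signal was 50 units there, with an error of 6.0 given by the scanner software, and 2.74 units on EMPTY replicate 2. On the miR-195 arrays it was 6.44 and 4.95 units, neither well above background. The signal thus rests on 1 of 4 arrays, with the other EMPTY array at background, and no fold can be given between the groups.

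Prss34, a tryptase of basophils and mast cells, was detected on EMPTY replicate 2 alone. The signal was 11.9 and 15.5 units with EMPTY, and 10.9 and 8.86 units with miR-195. The highest of these values was close to the lowest detected spots of the arrays, and no fold can be given here either.

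**Figure D1:**
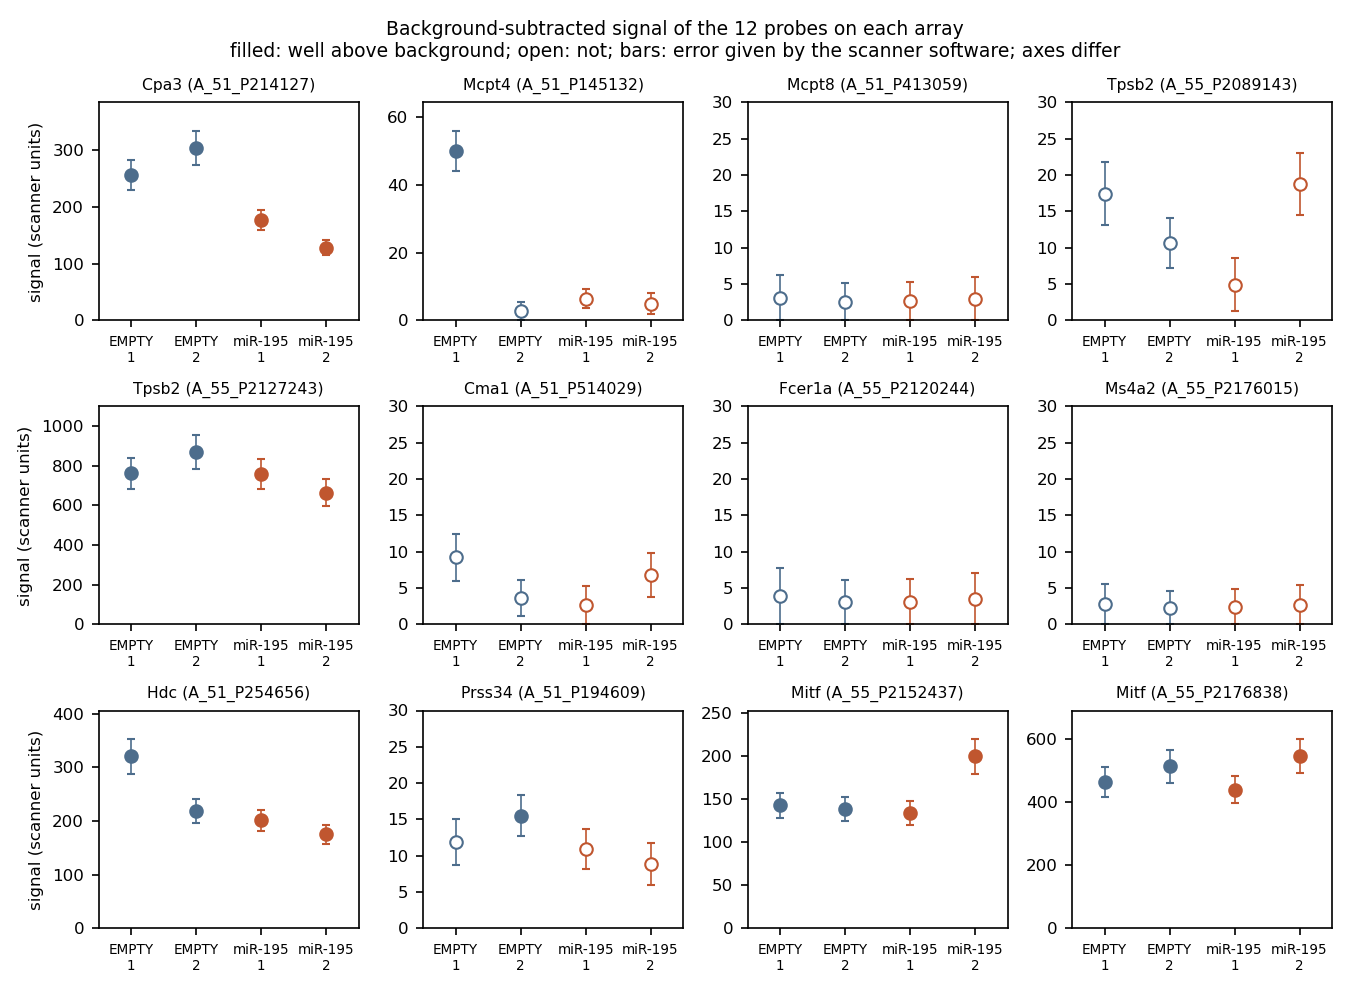
Background-subtracted signal in scanner units of each of the 12 probes on the 4 arrays, with filled points where the spot was well above background, open points where it was not, and bars for the error given by the scanner software; the panels have different axes. The probes of Cpa3, Hdc and Mitf and 1 of the 2 probes of Tpsb2 are filled on all 4 arrays, Mcpt4 and Prss34 on 1 array each, and the remaining 5 probes on 0.

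The granule proteases were read next, on the log2 scale relative to the 75th percentile of each array. Cpa3, which trims peptides in mast cell granules and is switched on early in the lineage, was -2.14 and -1.76 with EMPTY, and -2.35 and -2.85 with miR-195. Both miR-195 values lay under both EMPTY values. The difference, miR-195 minus EMPTY, was -0.65 (SE 0.23, 95% interval -1.26 to -0.04), a level 0.638 times that of EMPTY. The adjusted p was 0.578 over the 23731 probes tested with limma, which gave every adjusted p below, so the difference did not pass the threshold of 0.05. Without EMPTY replicate 2 it was -0.46 and without miR-195 replicate 2 it was -0.40, and the normexp background correction gave -0.41.

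Cpa3 was the single probe among the 5 tested ones with an unadjusted limma p under 0.05. Of all probes tested, 2.09% were lower with an unadjusted p under 0.05 and 6.25% were higher. Probes whose groups did not overlap made up 14.4% of all tested as lower and 23.4% as higher, and among the 5 tested probes there was 1 of each, Cpa3 and 1 probe of Mitf. By the adjusted limma p, 0 of the 5 and 0% of all tested probes passed, with 1483 higher and 496 lower at an unadjusted p under 0.05 (1112 and 807 under median scaling, 3418 and 336 with normexp). For a single value, the smallest two-sided p that exact permutation of 2 against 2 arrays allows is 0.333.

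Tpsb2 encodes a tryptase of mast cells, and its probes disagreed. The probe A_55_P2127243 was bright, with log2 levels of -0.57 and -0.25 with EMPTY, and -0.25 and -0.47 with miR-195. The groups overlapped, and the difference was 0.044 (SE 0.17, 95% interval -0.40 to 0.49, adjusted p = 0.973). The probe A_55_P2089143 was detected on 0 arrays, with 4.93 to 18.8 units where the former gave 664 to 867 units. The first 30 bases of each 60-base probe are given to show that they read different sequence.
A_55_P2127243: gggctgtgctgtctttaactcactgcttcc
A_55_P2089143: ttttcccattgtccatgatggcatgctgtg
Over their full length the longest run that they share, on either strand, is 7 bases. The probe of the related tryptase Tpsab1, which was detected on 0 arrays, shares at most 6 bases in a row with the bright probe and 8 with the dim one. Whether the bright probe measures the Tpsb2 transcript was not tested, and its value is given as that of the probe. For Mitf the 2 probes share at most 5 bases in a row, and both were detected on all 4 arrays.

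Most proteases of the family sit in gene clusters, and the array covers the clusters around 5 of the 10 genes. In GRCm38.p6, Cma1, Mcpt4 and Mcpt8 lie on chromosome 14 in a locus of 15 protein-coding genes that runs from Cma1 to the granzyme gene Gzmb. By the best probe of each gene, 5 of the 15 genes were detected on all 4 arrays, 1 on 1 array and 9 on none. The 5 were Cma2, Ctsg, Gzme, Gzmc and Gzmb, of which Ctsg (cathepsin G) is known from neutrophil progenitors and the granzymes from NK and T cells. All of the Mcpt genes other than Mcpt4 (Mcpt1, Mcpt2, Mcpt8 and Mcpt9) were at 0 arrays. In the tryptase locus on chromosome 17, which runs from Prss34 to Tpsg1, Prss28 was detected on all 4 arrays and Prss29 and Tpsg1 on 0. The granzymes and the chymases are related in sequence, and binding of one transcript by the probe of another was not tested.

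**Figure D2:**
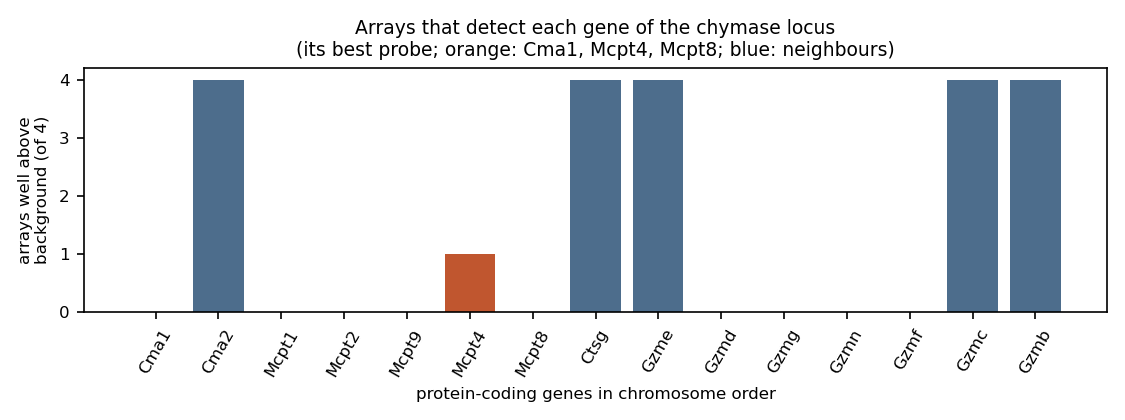
Number of arrays, of 4, on which the best probe of each gene of the chymase locus was well above background, with the 15 genes in chromosome order. Cma1 and Mcpt8 stand at 0 and Mcpt4 at 1, while Cma2, Ctsg, Gzme, Gzmc and Gzmb stand at 4.

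Over a list of 14 granule proteases, which holds 6 of the 10 genes, 5 of 15 probes were tested, 3 higher and 2 lower (1 and 4 under median scaling), and 0 passed. Beside Cpa3 and Tpsb2 these were Ctsg, Gzmb and Cma2. Ctsg was -5.97 and -5.62 with EMPTY, and -5.46 and -4.20 with miR-195, which do not overlap. The difference was 0.96 (SE 0.44, adjusted p = 0.668), and without miR-195 replicate 1 it was 1.59 with an adjusted p of 0.0154, which sets the higher miR-195 array alone against both EMPTY arrays and assumes that it varies like them. Ctsg is also one of the neutrophil progenitor markers below. Gzmb was 1.48 and -0.23 with EMPTY, and 0.59 and 0.81 with miR-195, a difference of 0.072 (SE 0.57) with both miR-195 values between the EMPTY values. Cma2 gave -0.20 (SE 0.14, adjusted p = 0.820). The median of the 5 tested probes was 0.044, that of all tested probes 0.013. Under median scaling these were -0.054 and -0.084, and with any 1 array left out the median of the proteases was negative.

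Hdc, the enzyme that makes histamine from histidine, was -1.81 and -2.24 with EMPTY, and -2.17 and -2.40 with miR-195. EMPTY replicate 1 was the highest, and the other EMPTY value lay between those of miR-195. The difference was -0.26 (SE 0.19, 95% interval -0.76 to 0.25, adjusted p = 0.836), -0.04 without EMPTY replicate 1 and -0.47 without EMPTY replicate 2.

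Hdc belongs to a list of 17 genes for granule matrix and mediators, of which 12 of 18 probes were tested, 4 higher and 8 lower (6 and 6 with normexp), with 0 past the threshold and a median difference of -0.046. Tph1, which starts serotonin synthesis, had the largest negative difference. Its levels were -1.69 and -2.22 with EMPTY, and -2.97 and -2.65 with miR-195, with no overlap, and its difference was -0.86 (SE 0.23, adjusted p = 0.530). Slc18a2, which loads amines into granules, gave 0.33 (SE 0.16), and its other probe was detected on 0 arrays. The prostaglandin D synthase Hpgds gave 0.30 (SE 0.24) and Il6 gave -0.54 (SE 0.54), neither with separate groups. The cytokine genes Il4 and Il13 and the leukotriene enzyme gene Alox5 were detected on 0 arrays, while its partner Alox5ap was detected on all 4. Ptgs2 was detected on 1 miR-195 array and 0 EMPTY arrays. Its levels were -7.93 and -6.61 with EMPTY, and -7.69 and -4.01 with miR-195, which overlap, and no fold can be given between the groups. Srgn, the core protein of the granule matrix, was not tested because of an outlier spot on EMPTY replicate 1.

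The receptors were examined because mast cells and basophils are recognised by them. Fcer1a and Ms4a2, the FceRI chains named above, were at 0 arrays, whereas Fcer1g, the gamma chain that many other Fc receptors also use, was among the bright probes. Its log2 level was 5.96 and 6.03 with EMPTY, and 5.94 and 5.72 with miR-195. The difference was -0.17 (SE 0.14, adjusted p = 0.855). Kit, the SCF receptor, was 1.49 and 1.50 with EMPTY, and 1.66 and 1.87 with miR-195. Both miR-195 values lay above both EMPTY values, with a difference of 0.27 (SE 0.13, adjusted p = 0.697). Il1rl1, the IL-33 receptor, was -1.65 and -2.16 with EMPTY, and -2.88 and -2.42 with miR-195 by its detected probe. These did not overlap either, in the opposite direction, with a difference of -0.75 (SE 0.25, adjusted p = 0.558). A second Il1rl1 probe was detected on 1 miR-195 array and 0 EMPTY arrays, and the last on 0 arrays. The second probe was -6.44 and -7.03 with EMPTY, and -6.46 and -5.52 with miR-195, which overlap, and no fold can be given for it.

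Among the 18 receptor genes, 14 of 25 probes were tested, 1 higher (Kit) and 13 lower under each of the 6 scalings and background corrections compared, with 0 past the threshold. The 14 probes read 10 genes, some by 2 probes, and over all 23731 tested probes 12589 were higher and 11142 lower. The median difference was -0.25, against 0.013 over all tested probes, and leaving out EMPTY replicate 1 brought it to -0.13. Il18r1, the IL-18 receptor, gave -0.46 (SE 0.19) and -0.48 (SE 0.20) by 2 probes. The shared beta chain gene Csf2rb gave -0.28 (SE 0.16) and -0.20 (SE 0.16), and Il3ra, the alpha chain of the IL-3 receptor, gave -0.055 (SE 0.13). Mrgprb1, Mrgprb2, Cd200r3, Ccr3 and Itga2 were detected on 0 arrays, the first 2 being known from connective tissue mast cells and Cd200r3 from basophils.

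Mitf, a transcription factor that mast cells, melanocytes and osteoclasts require, was detected by both of its probes. The probe A_55_P2152437 was -2.98 and -2.89 with EMPTY, and -2.75 and -2.21 with miR-195. The groups did not overlap, and the difference was 0.46 (SE 0.21, 95% interval -0.09 to 1.01, adjusted p = 0.673). It was 0.19 without miR-195 replicate 2 and 0.73 without miR-195 replicate 1. The probe A_55_P2176838 was -1.28 and -1.0 with EMPTY, and -1.04 and -0.76 with miR-195. Here 1 EMPTY value lay between the miR-195 values, and the difference was 0.25 (SE 0.17, 95% interval -0.20 to 0.69, adjusted p = 0.821). Before the division by the 75th percentile, the former probe gave 143 and 139 units with EMPTY, and 134 and 200 units with miR-195. The higher level of miR-195 replicate 1 thus depended on the scaling, as the 75th percentile was 902 units on that array and 1127 units on EMPTY replicate 1.

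**Figure D3:**
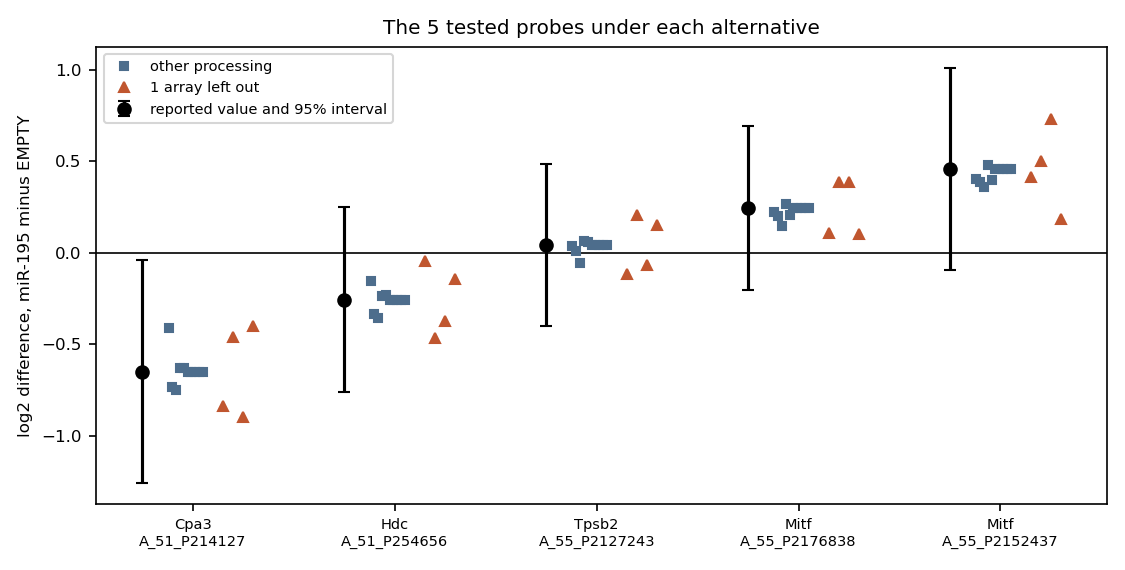
Log2 difference, miR-195 minus EMPTY, of the 5 tested probes with its 95% interval (black), under other processing (squares) and with 1 array left out (triangles). Cpa3 and Hdc stay under 0 and both Mitf probes above 0 in all of the settings run, while the value of Tpsb2 changes sign, and the triangles of every probe but Cpa3 span more than the size of its reported difference.

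Other transcription factors of the lineage were taken with Mitf in a list of 18 genes, of which 22 of 24 probes were tested, 16 higher and 6 lower (8 and 14 under median scaling), with 0 past the threshold and a median of 0.053, or -0.045 under median scaling. The Gata2 probe was detected on 0 arrays, although Gata2 is needed for mast cells and for early progenitors. Gata1 was -3.43 and -2.70 with EMPTY, and -2.71 and -2.66 with miR-195, and its difference of 0.38 (SE 0.26) was 0.011 without EMPTY replicate 1. Tal1, a partner of GATA factors, gave 0.45 (SE 0.17, adjusted p = 0.584) with groups that did not overlap. The GATA cofactor gene Zfpm1 gave -0.24 (SE 0.14) and -0.30 (SE 0.13) by 2 probes, both without overlap. Cebpa, which steers progenitors to myeloid fates, gave 0.025 (SE 0.16).

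Transcripts of the signalling proteins under FceRI, which lymphoid and other myeloid cells are also known to use, were detected on all 4 arrays by 24 of 25 probes. Of 18 genes, 25 of 25 probes were tested, 10 higher and 15 lower, with 0 past the threshold and a median of -0.054. Phospholipase Plcg1 gave 0.34 (SE 0.16) by 1 probe. By the other it gave 0.61 (SE 0.13, adjusted p = 0.530), but with EMPTY that probe was detected on 1 array of 2, and its difference was 0.33 with normexp and 0.23 in the authors' table. The adaptor Lcp2 gave -0.43 (SE 0.25) with overlapping groups.

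**Figure D4:**
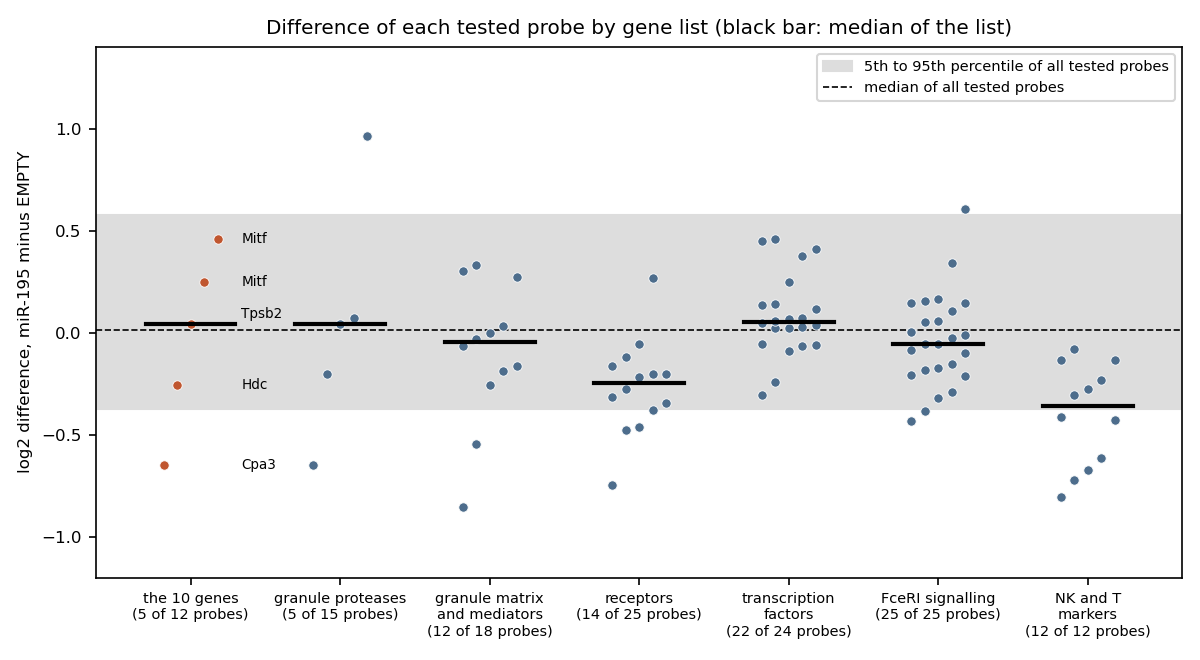
Log2 difference, miR-195 minus EMPTY, of each tested probe of the 10 genes, of the 5 lists of related genes and of the NK and T markers, with the median of each list as a black bar, the 5th to 95th percentile of all tested probes (-0.37 to 0.58) as a grey band and their median (0.013) as a dashed line. The points of the 10 genes spread on both sides of the dashed line, with Cpa3 under the band, while 13 of 14 receptor probes and 12 of 12 NK and T probes lie under 0. For the NK and T markers Ncr1, Tbx21 and Klrb1c this rests on EMPTY replicate 1 alone.

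The letters of the promoters were compared because GATA factors and Mitf, which binds E-boxes, are known regulators of these genes. RefSeq promoters were found for 9 of the 10 genes, in 11 windows of 250 bases before a start site. The GATA letters AGATAA or TGATAA, on either strand, stood in 7 of the 11 windows and in 6 of the 9 genes, against 16.6% of the 32851 windows of all genes. Singly, AGATAA stood in 9.99% of all windows and TGATAA in 7.94%. The E-box letters CACGTG stood in 0 of the 11 windows (6.02% of all) and CATGTG in 2, those of Fcer1a and Prss34 (12.3% of all). The stretches around the GATA letters nearest the start are given for 1 detected gene and 3 that were detected on 1 array or fewer, with the letters in capitals.
Cpa3: agctgttcgtcgAGATAAaagctgaggtat
Fcer1a: acaaccctattaTTATCTctggagaaagcc
Mcpt4: catgagaatttcTGATAAggaaagtagagc
Prss34: cctgtggaagaaAGATAAatgggaccctgg
They lie at chr3:20242210-20242239 (minus strand), chr1:173227304-173227333 (minus strand), chr14:56062396-56062425 (minus strand) and chr17:25298351-25298380 (plus strand) of GRCm38.p6. The windows of Hdc, Cma1 and Mcpt8 held neither GATA version. Genes with the letters thus stood among the detected (Cpa3, Mitf) and among the undetected (Fcer1a, Ms4a2), and a match describes the sequence only.

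As the arrays measured whole cultures, fewer cells of a type and less RNA per cell cannot be told apart. Lists of markers of other cells were read in the same way. Across these lists 0 probes passed the limma threshold, the lowest adjusted p being 0.530, and the part of these cells in the values above was not tested. NK and T markers, 12 of 12 probes tested, were lower in 12 of 12, with a median of -0.36 and a summed level, in units of the 75th percentile, of 25.7 to 28.1 on the EMPTY arrays and 20.9 to 23.4 on the miR-195 arrays. Cd3g had the largest difference of these, -0.80 (SE 0.18). The 12 probes read 10 genes, and for 5 probes the groups did not overlap (14.4% of all tested as lower). For Ncr1, Tbx21 and both Klrb1c probes, EMPTY replicate 2 lay under both miR-195 arrays. Their lower means thus rest on EMPTY replicate 1 alone. Markers of neutrophils and granulocyte progenitors were tested for 9 of 13 probes, with a median of 0.26 and sums of 2.26 to 3.11 with EMPTY and 3.56 to 4.15 with miR-195. S100a8, S100a9, Ngp and Ms4a3, the last known from granulocyte and basophil progenitors, were detected on 0 arrays, and Mpo, Elane, Prtn3, Ctsg, Camp, Ltf and Lcn2 on all 4. Monocyte and macrophage markers were higher in 11 of 14 probes, with a median of 0.42, and summed to 38.7 to 39.1 on the EMPTY arrays and 33.4 to 39.6 on the miR-195 arrays. Most of each sum came from Ly86, 1 of the 3 lower probes. It was 4.88 and 4.93 with EMPTY, and 4.88 and 4.57 with miR-195, so the sum does not follow the 11 higher probes.

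Eosinophil markers, relatives of the same granulocyte branch, were tested for 5 of 10 probes, 2 higher and 3 lower, with a median of -0.32 (0.18 with normexp). They gave sums of 1.24 to 1.57 on the EMPTY arrays and 1.07 to 1.19 on the miR-195 arrays. Most of each sum came from the brighter Siglecf probe, at 0.41 and 0.08 with EMPTY, and -0.17 and -0.03 with miR-195. Both Siglecf probes were among the 3 lower, and both also stand in the receptor list above. Epx, Prg3, Ear1, Ear2 and Ccr3 were detected on 0 arrays, and Prg2, Il5ra, Ear6 and Siglecf on all 4. Megakaryocyte markers were tested for 6 of 11 probes (median 0.12) and erythroid markers for 4 of 9 (median -0.43). Progenitor markers were higher in 10 of 11 tested probes (median 0.16), or 7 under median scaling (median 0.059). Early B markers were higher in 11 of 14 (median 0.27), or 9 under median scaling (median 0.17). OP9 stroma markers were tested for 11 of 16 probes, 9 higher and 2 lower, with a median of 0.17. They summed to 24.4 on each EMPTY array, 20.0 on miR-195 replicate 1 and 29.0 on miR-195 replicate 2. Thy1, the brightest of these probes on the EMPTY arrays, was among the 2 lower, with a difference of -0.59 (SE 0.15). The 9 higher probes were all lowest on miR-195 replicate 1 and highest on miR-195 replicate 2, where Thy1 was lowest. The sum on miR-195 replicate 2 thus understates the rise of those 9 probes. Both Mitf probes were highest on miR-195 replicate 2, at -2.21 (A_55_P2152437) and -0.76 (A_55_P2176838). Ctsg and Cd79b, which are not stroma markers of this list, were also highest on that array. A link between the stroma and these values was not tested.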

How the data were processed

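The authors deposited, for each of 4 single-colour Agilent mouse arrays, the intensity of every spot after background subtraction by Agilent Feature Extraction (11.5.1.1 per the labels), where spots at background hold small positive stand-in values, and a table of log2 values per probe. Spots of 1 probe were averaged as log2 intensity and the 75th percentile of the array was subtracted, as the methods state. These values correlated with the deposited log2 table at r = 0.998 on each array. Per array, 23658 to 24671 of 39429 probes were well above background, the 75th percentile was 902 to 1127 units, the median background was 38 to 39 units, 0 spots were saturated and 21 to 65 outlier spots were left out. The number of arrays limits the precision. Over the tested probes the most alike arrays were EMPTY replicate 2 and miR-195 replicate 1, with a median absolute log2 difference of 0.095. It was 0.147 between the EMPTY arrays and 0.194 between the miR-195 arrays, so the arrays did not group by virus.

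Probes had to be detected on both EMPTY or both miR-195 arrays and free of outlier spots. The 23731 that were went into limma (version 3.58.1, functions lmFit and eBayes, R 4.3.3), two-sided, with Benjamini-Hochberg adjustment over all of them and a threshold of 0.05. The script was tested on simulated data. No fold is given for a probe where 1 group was not above background on any array. Symbols came from the array design, or from RefSeq (GRCm38.p6) by accession for 26055 probes. The genes, the 5 related lists, the marker lists and the named genes (every probe of the 10 genes, the 2 largest differences each way per list, and fixed lineage genes) were chosen with earlier results of these data known. The genes of the protease loci were named after their values were seen. Alternatives covered background correction, scaling, the filter, the variance model, the replicate block, each array left out and the methods' t-test. The values of some genes under the rule for named genes are not reported here.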

Additional observations from a re-analysis of the deposited data

How the results depend on the processing

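Cpa3, Hdc and both Mitf probes kept their direction, and all 5 tested probes stayed short of the threshold, under the 14 alternatives run for each. Cpa3 ranged from -0.90 to -0.40, with adjusted p-values of 0.0796 or more and an unadjusted p under 0.05 in 9 of 14. Tpsb2 turned to -0.054 under median scaling. Leaving out 1 array gave -0.12 to 0.20 for Tpsb2, -0.47 to -0.04 for Hdc, and 0.19 to 0.73 and 0.11 to 0.39 for the Mitf probes. The methods' one-sample t-test was run on the differences between same-numbered arrays, a pairing that the labels do not give. By this test, Mitf A_55_P2176838 had an unadjusted p under 0.05 and an adjusted p of 0.898, where the unadjusted limma p was 0.214. Across the array the t-test called 762 probes higher and 372 lower before adjustment and 0 after it.

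Median scaling moved the median of all probes to -0.084, and with it the medians of the 10 genes to -0.054, of the receptors to -0.34, of the transcription factors to -0.045 and of FceRI signalling to -0.15. The looser filter, which adds the dim Mcpt4 and Prss34 probes, gave -0.23 for the 10 genes. Leaving out 1 array gave medians of -0.066 to 0.20 for the 10 genes, -0.29 to -0.038 for the proteases, -0.071 to 0.036 for granule matrix and mediators, -0.48 to -0.13 for the receptors, 0.014 to 0.13 for the transcription factors and -0.068 to -0.036 for FceRI signalling. The cause was not tested.

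Across the array, median scaling called 3 probes, and leaving out 1 array called 0 to 904, the latter without miR-195 replicate 1 and 3 without miR-195 replicate 2. With the replicate number as a block, 5 probes were called, and no call changed among the 5 tested probes. Same-numbered arrays deviated with a correlation of -0.10, and the crossed pairing, added after seeing this, called 0 probes.

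Among the related genes, Gzmb turned to -0.026 and Cebpa to -0.073 under median scaling, and Cebpa to -0.031 under quantile normalization and -0.0078 in the authors' table. Il6 turned to 0.040 and Ebf1 to 0.0080 under normexp, and Ebf1 to 0.013 under quantile normalization and 0.015 with the percentile over detected probes. Leaving out 1 array turned Gzmb (-0.78 to 0.93), Cebpa (-0.15 to 0.20), Il6 (-1.14 to 0.050), Il3ra (-0.15 to 0.042) and Ebf1 (-0.096 to 0.083).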
